A study of Mus musculus with 24 samples.

Results

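Dbp, Tef, Hlf, Nfil3, Bhlhe40, Bhlhe41 and Rora encode transcription factors that carry the timing of the circadian clock to other genes. These 7 genes, of 37325 gene names on the array, were taken by name, and each was read by the brightest of its probes. Of the 7, 6 passed the filter on dim probes and Bhlhe41 did not. Gene expression was measured in whole livers of 12-week-old male mice, from 6 mice in each of 4 groups and on 1 array for each mouse. LWT_Fed and LWT_Fasted mice (p110aLWT) were littermates carrying floxed p110α without Cre. LKO_Fed and LKO_Fasted mice (p110aLKO) were p110α flox/flox with albumin-Cre+/-, so that the gene for the PI3Kα catalytic subunit is targeted in hepatocytes. Whether other liver cells keep the gene was not examined here. Fed mice ate ad libitum, fasted mice had no food for 24 h, and every liver was taken at ZT16, a point in the dark phase. With a single hour sampled, a change of level and a shift of phase cannot be told apart. In these bulk samples, fewer cells of a type and less RNA per cell cannot be told apart either.

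Dbp, Tef and Hlf are the PAR bZIP activators, which bind D-box elements and drive genes of detoxification and lipid metabolism in liver. Nfil3 (E4BP4) is a repressor that competes for the same elements. Bhlhe40 and Bhlhe41 (DEC1 and DEC2) repress E-box genes, the class to which CLOCK and BMAL1 bind, and Rora activates genes through ROR elements, on which the REV-ERB repressors Nr1d1 and Nr1d2 compete.

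Because these factors are themselves placed in the clock loop by such elements, their promoters were searched for the letters of each. RefSeq windows of 300 bases on GRCm38.p6, running from 250 bases before a start to 50 after it, were found for 6 of the 7 genes, 7 windows in all. No window was listed for Bhlhe40. The E-box CACGTG was present in 3 of the 7 windows, against 7.15% of 32851 windows of all genes. The D-box forms TTATGTAA (0.938% of all windows) and TTACGTAA (0.119%) were in none of the 7. The ROR element core TAGGTCA (2.61%) was in 1. All motifs were searched on both strands, CACGTG reads the same on each, and no match overlapped another. Each line gives the stretch around a match, from 5′ to 3′ on the strand of the gene, with the match in capitals, to show where such letters lie in the members' promoters.
Tef, upstream start, chr15:81802524-81802573 (+): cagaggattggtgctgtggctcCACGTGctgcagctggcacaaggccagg
Tef, downstream start, chr15:81811254-81811303 (+): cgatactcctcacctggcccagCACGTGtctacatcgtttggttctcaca
Bhlhe41, chr6:145865546-145865595 (-): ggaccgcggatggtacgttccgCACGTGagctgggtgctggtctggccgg
Nfil3, chr13:52981040-52981073 (-): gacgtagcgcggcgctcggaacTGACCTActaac
The Tef matches begin 127 and 138 bases before their starts, the Bhlhe41 match 153 bases before, and the Nfil3 match, which is TAGGTCA read on the opposite strand, 12 bases before. The Nfil3 stretch is printed only up to the last base before its start. The Dbp, Hlf and Rora windows held none of these letters. A match is a string of letters and was not shown to be bound here.

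On each array 54.7% to 63.0% of spots were well above background, the median spot signal lay between 69.0 and 88.5, and 0 spots were saturated. The arrays came from 3 slides, and each slide held 2 arrays of each group. Within groups the lowest correlation between arrays was 0.985, in LKO_Fasted, and 0.992 or above in the other groups. LKO_Fasted replicates 1 and 2 stood apart from the other LKO_Fasted arrays, so some values are also given without them. Leaving both out changed no member's call. Pik3ca, the targeted gene, was read by 1 probe whose place relative to the deleted part was not examined. Its log2 signal ran from 11.71 to 12.25 in LWT_Fed, 12.30 to 13.02 in LKO_Fed, 12.05 to 12.42 in LWT_Fasted and 12.03 to 12.50 in LKO_Fasted. It was higher by 0.58 in arrays labelled LKO_Fed (adjusted p = 0.00147 by limma) and differed by -0.02 between the fasted groups (adjusted p = 0.93). This probe therefore does not check the genotype labels, and directions between genotypes are stated between arrays labelled LKO and LWT.

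All 6 hepatocyte markers (Alb, Apoa1, Ttr, Cps1, Tat, Hnf4a) were well above background on all 24 arrays. Their mean log2 signal ranged from 16.75 to 17.23 over all arrays, and 0 of 6 were called in any comparison. By adjusted p alone (limma), Hnf4a was higher with fasting in LWT (0.57, adjusted p = 8.42e-07) and LKO (0.28, adjusted p = 0.00473). Ttr was lower with fasting (-0.175 and -0.37), between fed genotypes (-0.21) and between fasted genotypes (-0.41, adjusted p = 2.03e-05). Hnf4a was lower between fasted genotypes (-0.24, adjusted p = 0.027), and Apoa1 higher between fed genotypes (0.28, adjusted p = 0.0296). Of 6 Kupffer cell and macrophage markers and 4 of 6 lymphocyte markers tested, 0 were called in any comparison. With fasting in LWT all 6 macrophage markers were below 0, with a median of -0.47, and 1 of them, Cd68, passed the adjusted p (-0.51, adjusted p = 0.0168). Their mean ran from 11.41 to 12.10 in LWT_Fed and from 10.69 to 11.99 in LWT_Fasted. Of 5 cholangiocyte markers, 1, Spp1, was called between the fasted genotypes (log2 difference -2.10, adjusted p = 5.49e-06 by limma). The mean of the 5 ranged from 7.29 to 7.55 in LWT_Fasted and from 6.40 to 7.03 in LKO_Fasted. Of 4 adipose markers tested, 1, Cfd, was called there (-3.00, adjusted p = 0.008), with list means of 6.43 to 8.04 in LWT_Fasted and 6.26 to 6.79 in LKO_Fasted. Of 3 exocrine pancreas markers tested, 1, Cela2a, was called higher there (0.63, adjusted p = 0.021), with list means of 8.92 to 9.22 in LWT_Fasted and 8.66 to 9.18 in LKO_Fasted. The other tested pancreas markers passed the adjusted p in the opposite direction, under the 1.5-fold minimum (Amy2a5 -0.51, adjusted p = 0.00112; Ctrb1 -0.31, adjusted p = 0.039), as did Epcam of the cholangiocyte list (-0.42, adjusted p = 0.00935). The part of other cell types in the results below was not tested. With fasting, the stellate cell marker Lrat (-0.90 in LWT and -0.96 in LKO), the cholangiocyte marker Krt19 (-0.67 and -0.59) and the exocrine marker Cela2a (-0.79 and -0.99) were called lower in both genotypes. These were 1 of 5 stellate and 1 of 3 tested pancreas markers, while of 5 cholangiocyte markers 1 was called lower in LWT and 2 in LKO. Sox9, of the same cholangiocyte list, was higher with fasting by adjusted p alone (LWT mice 0.55, adjusted p = 0.00218; LKO mice 0.57, adjusted p = 0.00359). The stellate list mean ran from 8.46 to 8.76 in LWT_Fed and 8.19 to 8.49 in LWT_Fasted, and from 8.45 to 8.77 in LKO_Fed and 7.98 to 8.55 in LKO_Fasted. Spp1 was also called with fasting in LKO (-0.95) and between the fed genotypes (-1.50). The endothelial marker Lyve1 was called between the fed genotypes (-0.88), as were Cfd (-2.76) and Cela2a (0.82). There Krt19 (-0.56, adjusted p = 0.021), Epcam (-0.41, adjusted p = 0.0102) and Ctrb1 (-0.36, adjusted p = 0.0154) passed the adjusted p alone, and Amy2a5 stood at -0.13. The cholangiocyte mean ran from 7.26 to 7.97 in LWT_Fed and from 6.81 to 7.39 in LKO_Fed, and all 5 estimates were below 0. The adipose mean ran from 6.72 to 7.42 in LWT_Fed and from 6.22 to 6.48 in LKO_Fed, without overlap. The exocrine pancreas markers Cpa1 and Pnlip were well above background on 0 arrays.

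Limma was used for 5 comparisons, namely fasting in LWT, fasting in LKO, genotype when fed, genotype when fasted, and an interaction. The interaction subtracts the LWT fasting difference from the LKO one. They share groups, so they are not independent of each other. A gene was called at an adjusted p of at most 0.05 with a change above 1.5-fold. Levels are normalized log2 signals, and differences come from the fit, which weights arrays by their quality, so they are not exactly the differences of plain means. A level of one probe was not set against that of another.

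**Figure D1:**
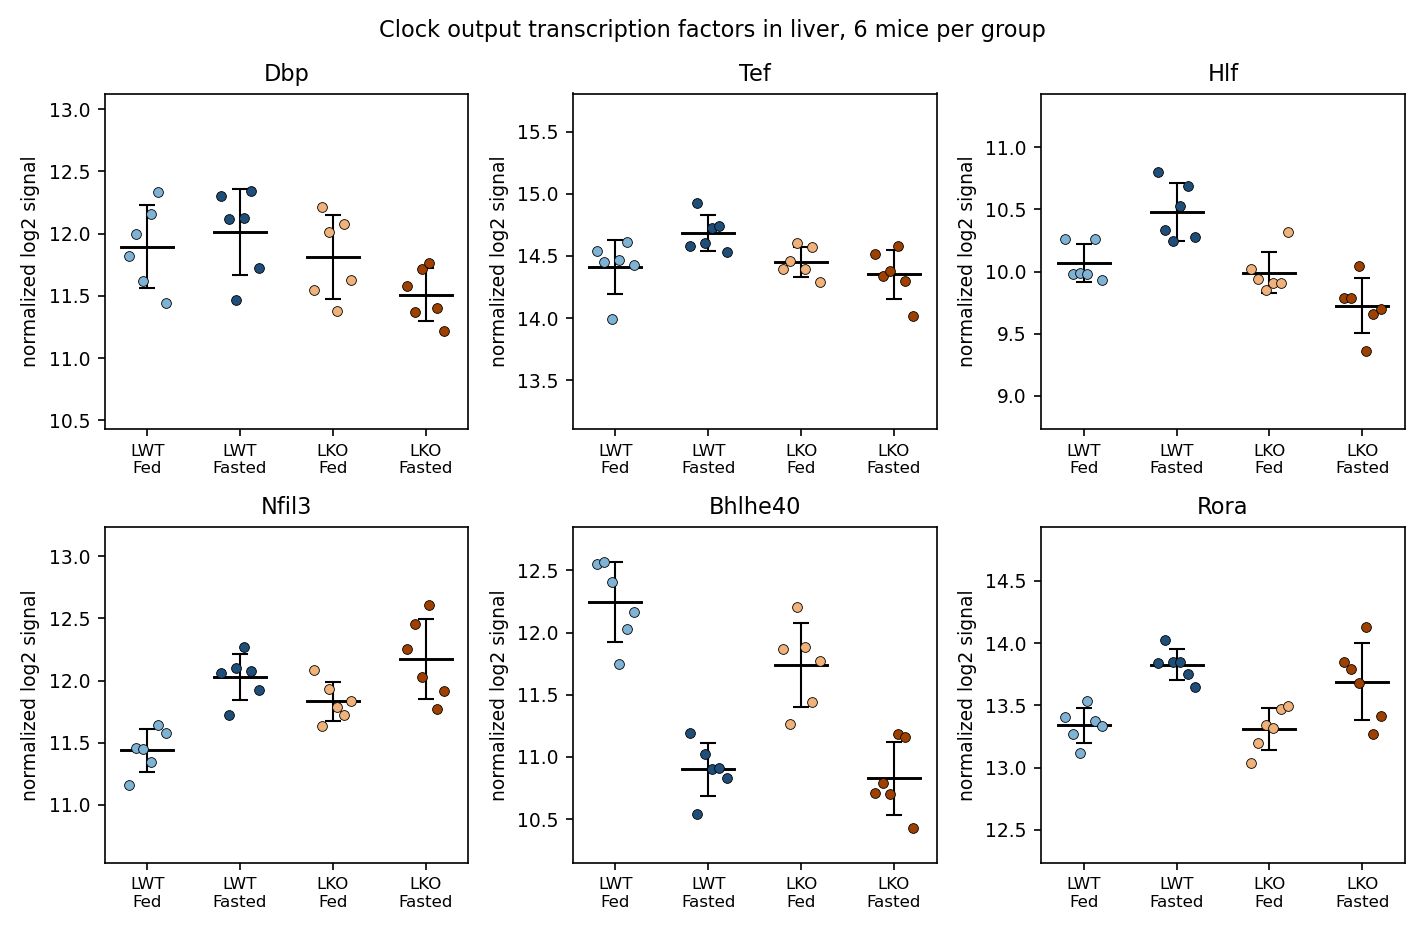
Normalized log2 signal (y axis) of the 6 detected clock output factors in the 4 groups (x axis), with 1 point per mouse, a horizontal line for the mean and bars for 1 SD; each panel spans the same number of log2 units. Bhlhe40 falls to between 10.43 and 11.19 in all fasted mice, and Hlf in LKO_Fasted lies below every LWT_Fasted mouse.

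Fasting in the control mice lowered Bhlhe40 and raised Nfil3. Of the 6 members tested, 2 were called, against 10.0% of the 21495 genes tested. By adjusted p alone 4 passed (Hlf, Nfil3, Bhlhe40 and Rora), against 41.5% of genes; that share is high, and nothing particular to the members is read from the count. The median difference of the 6 was 0.28, beside -0.01 over all genes. Of the 6, 5 were higher and 1 was lower.

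In the LKO mice fasting lowered Bhlhe40. It was the 1 member of 6 that was called, against 12.8% of genes. By adjusted p alone 2 passed, Bhlhe40 and Rora, against 41.5% of genes. The median difference was -0.17, beside -0.02 over all genes, and 2 of the 6 were higher and 4 lower.

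Between genotypes in the fed state, 0 of 6 members were called by limma, against 3.83% of genes. By adjusted p alone 1 passed, Nfil3, against 16.4% of genes. In the fasted state 1 of 6, Hlf, was called, against 4.06% of genes, and 2 passed by adjusted p alone, Tef and Hlf, against 20.6%. The median differences were -0.10 fed and -0.25 fasted, beside -0.01 and 0.00 over all genes.

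For the interaction 1 of 6 members, Hlf, was called, against 3.09% of genes. By adjusted p alone the count was also 1, against 7.97% of genes. The median interaction of the 6 was -0.30, beside 0.00 over all genes, and 5 of the 6 values were below 0.

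**Figure D2:**
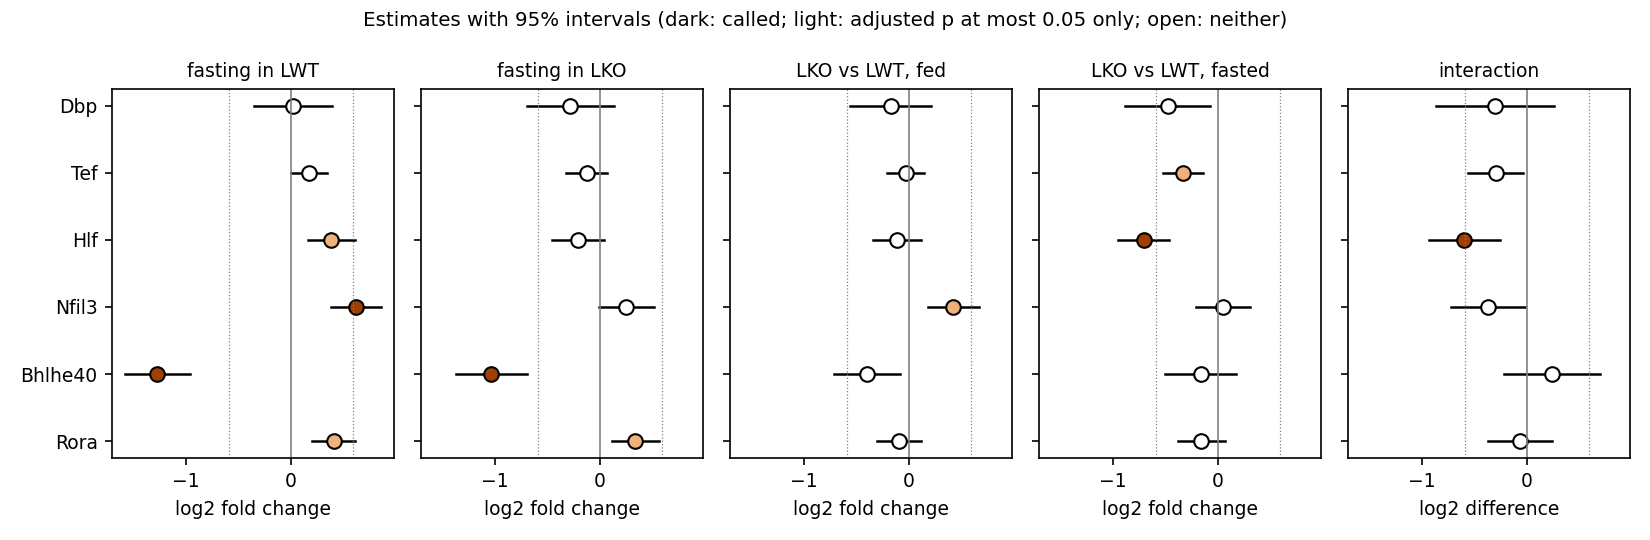
Estimated log2 differences (x axis) of the 6 detected factors (rows) in the 5 comparisons, with 95% intervals; dark points were called, light points passed the adjusted p without the 1.5-fold minimum, and dotted lines mark that fold. Bhlhe40 stands at -1.27 and -1.03 with fasting, and Hlf at -0.71 between the fasted genotypes.

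Hlf, the 1 PAR bZIP activator that was called in any comparison, was read on chromosome 11 at 90201236 to 90201295 (mm9, minus strand, NM_172563). In LWT_Fed its log2 signal had a lowest value of 9.93, a median of 9.99 and a highest of 10.26, and in LWT_Fasted these were 10.24, 10.43 and 10.80. In LKO_Fed they were 9.85, 9.93 and 10.31, and in LKO_Fasted 9.36, 9.74 and 10.04. Every LKO_Fasted mouse was thus below every LWT_Fasted mouse, and 5 of 6 LWT_Fasted mice were above all LWT_Fed mice. By mean the order was LWT_Fasted, LWT_Fed, LKO_Fed and LKO_Fasted, in which the fed groups did not differ by limma (-0.11, 95% interval -0.34 to 0.12, adjusted p = 0.545).

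Hlf was 1.63-fold lower in arrays labelled LKO_Fasted than in LWT_Fasted (log2 difference -0.71, SE 0.118, adjusted p = 0.000223 by limma). The call was made in each of the 24 fits that left out 1 array, with values from -0.81 to -0.63, and within the 3 slides the differences of means were -0.73, -0.67 and -0.86. With fasting Hlf was higher by 0.38 in LWT (SE 0.108, adjusted p = 0.00676) and differed by -0.21 in LKO (95% interval -0.46 to 0.04, adjusted p = 0.166). The interaction was -0.59 (SE 0.161, 95% interval -0.93 to -0.26, adjusted p = 0.0279), a 1.51-fold difference that lies just past the 1.5-fold minimum. Within slides it was -0.73, -0.52 and -0.79. It fell under the minimum with median scaling (-0.53), with probes kept only if well above background on all arrays (-0.58) and without the slide term (-0.58). The interaction call was lost without any 1 of LWT_Fed replicates 2 or 6, LWT_Fasted replicates 1, 4 or 5, LKO_Fed replicate 6, or LKO_Fasted replicates 4, 5 or 6. In those fits it ranged from -0.58 to -0.52, with adjusted p between 0.0301 and 0.0546 over them.

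Tef, the second PAR bZIP activator, was read on chromosome 15 at 81657221 to 81657280 (mm9, plus strand, NM_017376). The lowest, median and highest log2 signals were 13.99, 14.46 and 14.61 in LWT_Fed and 14.54, 14.66 and 14.92 in LWT_Fasted. They were 14.29, 14.43 and 14.60 in LKO_Fed and 14.02, 14.36 and 14.58 in LKO_Fasted. Of 6 LKO_Fasted mice, 5 were below all LWT_Fasted mice, whereas the fed groups overlapped fully.

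Tef was 1.26-fold lower in arrays labelled LKO_Fasted than in LWT_Fasted (log2 difference -0.33, SE 0.0907, adjusted p = 0.0126 by limma), which is past the adjusted p but under the 1.5-fold minimum. With only these groups in the fit the adjusted p was 0.0572. In the fed state the difference was -0.03 (95% interval -0.21 to 0.15, adjusted p = 0.853). With fasting it was 0.17 in LWT (95% interval 0.00 to 0.34, adjusted p = 0.107) and -0.13 in LKO (95% interval -0.32 to 0.06, adjusted p = 0.289). Without array weights the LWT value was 0.27 with adjusted p = 0.0393. The Tef interaction was -0.30 (95% interval -0.56 to -0.04, adjusted p = 0.15).

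The other 3 Tef probes that passed the filter gave the same side in the fasted state. With fasting in LWT, the NM_153484 probes passed the adjusted p (0.27, adjusted p = 0.00506, and 0.16, adjusted p = 0.0169) and the remaining one did not (0.21, adjusted p = 0.223). Of 2 probes assigned to NM_153484, the one at 81656928 to 81656987 of chromosome 15 had -0.38 between the fasted genotypes (SE 0.0789, adjusted p = 0.0015 by limma) and an interaction of -0.46 (SE 0.108, adjusted p = 0.0133). The other NM_153484 probe, whose 60 bases are spread over positions 81651816 to 81653921, had -0.09 between the fasted genotypes (adjusted p = 0.257) and an interaction of -0.13 (adjusted p = 0.346), so of the probes to this transcript 1 passed the adjusted p and 1 did not. The probe to another transcript had -0.31 (adjusted p = 0.149) and an interaction of -0.45 (adjusted p = 0.186). The interaction of Tef therefore passed the adjusted p with 1 of its 4 probes, and 0 of the 4 reached the 1.5-fold minimum.

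Dbp, the PAR bZIP activator whose mRNA is strongly rhythmic in liver, was read on chromosome 7 at 52965265 to 52965324 (mm9, plus strand, NM_016974). The lowest, median and highest log2 signals were 11.44, 11.91 and 12.33 in LWT_Fed and 11.47, 12.12 and 12.34 in LWT_Fasted. In LKO_Fed they were 11.38, 11.82 and 12.22, and in LKO_Fasted 11.21, 11.49 and 11.76. All pairs of groups overlapped, with 3 of 6 LKO_Fasted mice below all LWT_Fasted mice.

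Dbp was not called in any comparison. The largest estimate was -0.48 between the fasted genotypes (95% interval -0.88 to -0.07, adjusted p = 0.0918 by limma), and the second Dbp probe gave -0.52 (adjusted p = 0.0883). Leaving out LWT_Fasted replicate 3 gave -0.63 (adjusted p = 0.0268) and leaving out LWT_Fasted replicate 6 gave -0.65 (adjusted p = 0.0334), both of which were calls. With all arrays it passed the adjusted p, under the 1.5-fold minimum, without array weights (-0.51, adjusted p = 0.0471) and without the slide term (-0.50, adjusted p = 0.0438). Within the 3 slides the values were -0.36, -0.33 and -0.83. With fasting Dbp differed by 0.02 in LWT (95% interval -0.35 to 0.39) and by -0.28 in LKO (95% interval -0.70 to 0.13), and the fed genotypes by -0.17 (95% interval -0.56 to 0.21). Its interaction was -0.30 (95% interval -0.86 to 0.25, adjusted p = 0.539).

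**Figure D3:**
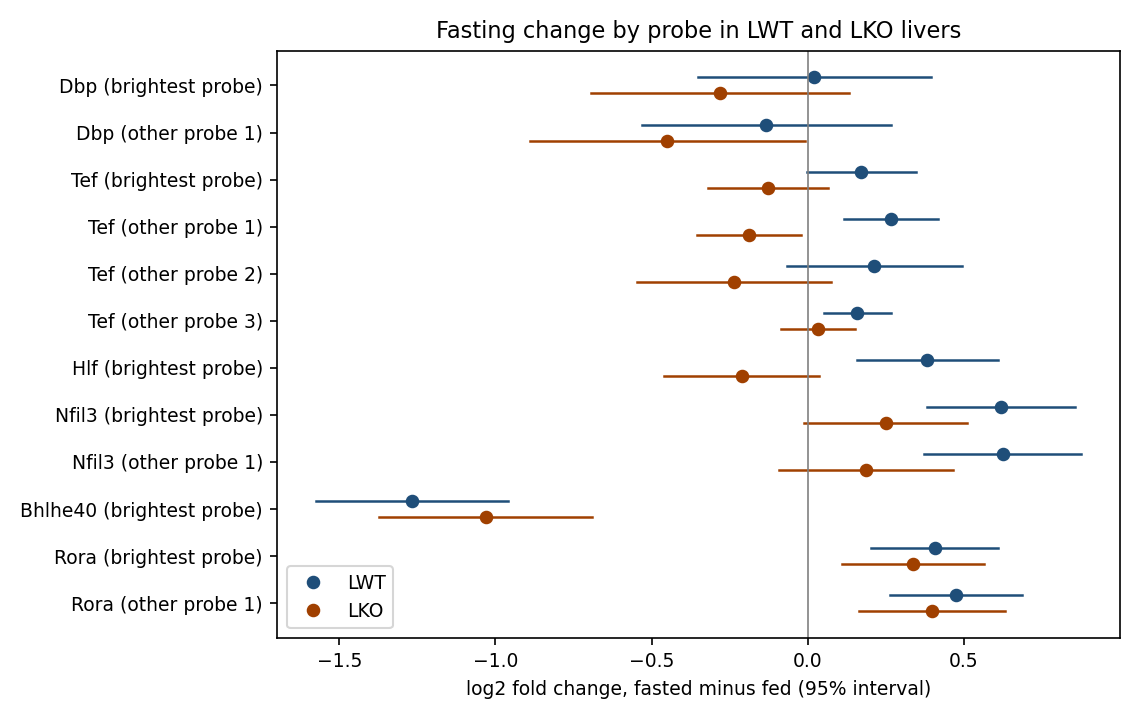
Fasting change on the log2 scale (x axis, with 95% intervals) for each probe of the detected factors that passed the filter (rows), in LWT (blue) and LKO (brown). The 4 Tef probes and the Hlf probe lie to the right in LWT, while in LKO the Hlf probe stands at -0.21 and the 4 Tef probes range from -0.24 to 0.03; both Nfil3 probes are at 0.62 in LWT.

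Nfil3, the repressor of D-box genes, was read on chromosome 13 at 53062578 to 53062637 (mm9, minus strand, NM_017373). The lowest, median and highest log2 signals were 11.16, 11.45 and 11.65 in LWT_Fed and 11.72, 12.06 and 12.27 in LWT_Fasted. They were 11.64, 11.81 and 12.08 in LKO_Fed and 11.77, 12.14 and 12.61 in LKO_Fasted. LWT_Fed was the low group, and its values did not overlap those of LWT_Fasted. Of 6 LKO_Fed mice, 5 were above all LWT_Fed mice.

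Nfil3 rose 1.53-fold with fasting in LWT (log2 difference 0.62, SE 0.114, adjusted p = 0.000148 by limma). Its second probe, at 53062585 to 53062644, overlaps most of the first and so is not a separate check. It gave 0.62 (adjusted p = 0.000261). The fold fell under 1.5 without LWT_Fed replicate 1 (0.55), LWT_Fed replicate 4 (0.57) or LWT_Fasted replicate 4 (0.56), and with median scaling (0.57), with adjusted p of at most 0.000722 in every fit that left out 1 array. Within slides the differences were 0.28, 0.77 and 0.71.

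In LKO the fasting difference of Nfil3 was 0.25 (95% interval -0.01 to 0.51, adjusted p = 0.12 by limma). It passed the adjusted p without LKO_Fed replicate 1 (0.34, adjusted p = 0.0341) or LKO_Fasted replicate 5 (0.34, adjusted p = 0.0389), with median scaling (0.30, adjusted p = 0.0446) and without array weights (0.34, adjusted p = 0.0295). It was 0.16 without LKO_Fasted replicate 2 (adjusted p = 0.341) and 0.12 without both LKO_Fasted replicates 1 and 2, which stood apart (adjusted p = 0.511). The within-slide values were 0.80, 0.00 and 0.23. The interaction was -0.37 (95% interval -0.72 to -0.02, adjusted p = 0.197), so the fasting changes were not shown to differ between genotypes.

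In the fed state Nfil3 was 1.34-fold higher in arrays labelled LKO than in those labelled LWT (0.42, SE 0.117, adjusted p = 0.0175 by limma), under the 1.5-fold minimum. The second probe, which overlaps the first, gave 0.43 (adjusted p = 0.0214). The adjusted p was 0.0583 without LWT_Fed replicate 1 (0.34), 0.0517 without LWT_Fed replicate 4 (0.37) and 0.0638 without LKO_Fed replicate 1 (0.33), and it was 0.0522 with median scaling (0.32). In the fasted state the genotypes differed by 0.05 (95% interval -0.21 to 0.31, adjusted p = 0.823).

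Bhlhe40, the E-box repressor, had the largest change of the 6 detected members. It was read on chromosome 6 at 108616309 to 108616368 (mm9, plus strand, NM_011498). The lowest, median and highest log2 signals were 11.75, 12.29 and 12.57 in LWT_Fed and 10.54, 10.91 and 11.19 in LWT_Fasted. In LKO_Fed they were 11.27, 11.82 and 12.21, and in LKO_Fasted 10.43, 10.75 and 11.19. All 12 fasted mice lay below all 12 fed mice. By mean the order was LWT_Fed, LKO_Fed, LWT_Fasted and LKO_Fasted.

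Bhlhe40 fell 2.41-fold with fasting in LWT (log2 difference -1.27, SE 0.148, adjusted p = 5.62e-07 by limma). In LKO it fell 2.04-fold (-1.03, SE 0.164, adjusted p = 2.71e-05). The interaction was 0.24 (95% interval -0.22 to 0.70, adjusted p = 0.564). Both fasting calls were made in each fit that left out 1 array, with ranges of -1.38 to -1.21 in LWT and -1.11 to -0.90 in LKO. Within slides the differences were -1.53, -1.45 and -1.05 in LWT and -0.53, -0.72 and -1.48 in LKO.

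Between the fed genotypes Bhlhe40 differed by -0.40 (95% interval -0.72 to -0.09, adjusted p = 0.0768 by limma), which did not pass the test. It passed the adjusted p without LWT_Fed replicate 4 (-0.51, adjusted p = 0.0228) or LKO_Fed replicate 3 (-0.53, adjusted p = 0.0154). With all arrays it also passed with median scaling (-0.53, adjusted p = 0.0127), without array weights (-0.50, adjusted p = 0.0354) and without the slide term (-0.46, adjusted p = 0.04). Within slides the differences were -0.70, -0.90 and 0.09, so the sign was not shared by the 3 slides. Between the fasted genotypes the difference was -0.16 (95% interval -0.50 to 0.17, adjusted p = 0.521).

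Bhlhe41, the paralog, was not well above background on any of the 24 arrays with either of its 2 probes. The median pixel intensity of these spots ranged from 34.5 to 60 before normalization. No fold is given for it, and its level was not detectable with these probes.

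Rora, the activator through ROR elements, was read on chromosome 9 at 69227536 to 69227595 (mm9, plus strand, NM_013646). The lowest, median and highest log2 signals were 13.11, 13.35 and 13.54 in LWT_Fed and 13.65, 13.84 and 14.03 in LWT_Fasted. They were 13.04, 13.33 and 13.50 in LKO_Fed and 13.27, 13.74 and 14.13 in LKO_Fasted. The LWT groups did not overlap, and 4 of 6 LKO_Fasted mice were above all LKO_Fed mice.

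Rora was 1.33-fold higher with fasting in LWT (log2 difference 0.41, SE 0.0986, adjusted p = 0.0021 by limma) and 1.26-fold higher in LKO (0.34, SE 0.109, adjusted p = 0.0166), both under the 1.5-fold minimum. A second probe gave 0.47 (adjusted p = 0.000704) and 0.40 (adjusted p = 0.00708). In LKO the adjusted p was 0.0687 without LKO_Fed replicate 1 (0.26), 0.0633 without LKO_Fasted replicate 1 (0.28), 0.0656 without LKO_Fasted replicate 2 (0.28) and 0.154 without both LKO_Fasted replicates 1 and 2 (0.23). With only the groups compared in the fit it was 0.0519 (0.35). The interaction was -0.07 (95% interval -0.37 to 0.24, adjusted p = 0.828). The genotypes differed by -0.09 fed (95% interval -0.30 to 0.12) and by -0.16 fasted (95% interval -0.38 to 0.06).

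Among mice of the same group, Dbp varied most. The SD of its residuals over the 24 arrays was 0.327, at the 91.9th percentile of all genes, whose median was 0.157. The SD was 0.293 for Bhlhe40 (88.9th percentile), 0.225 for Nfil3, 0.204 for Rora, 0.202 for Hlf and 0.183 for Tef (64.1st percentile). With group means and slide removed, Tef correlated with Rora (r = 0.66, n = 24 arrays) and with Dbp (r = 0.59), and Nfil3 with Bhlhe40 (r = 0.41). For Hlf, r was 0.29 to Dbp and -0.08 to Tef. Tef also correlated with the REV-ERB gene Nr1d2 (r = 0.80), as did Rora (r = 0.74) and Dbp (r = 0.59), whereas r of Hlf to Nr1d2 was -0.09. With Arntl, which encodes BMAL1, r was -0.50 for Dbp, -0.42 for Tef and -0.42 for Hlf. These correlations describe the same 24 arrays, which share their normalization, and carry no test.

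Over the levels of all 24 arrays, group differences included, the gene with the pattern most like each member was found by Pearson's r. For Bhlhe40 these were Acly, which encodes ATP citrate lyase of lipid synthesis (r = 0.93), and Gm31872 (r = 0.92). For Hlf they were Tmem198b (r = 0.92) and 2310010J17Rik (r = 0.85), and for Rora Gin1 (r = 0.91) and Fnip1 (r = 0.91). For Nfil3 they were Smarca5-ps (r = 0.87) and Ccdc22 (r = 0.87), for Tef Erlec1 (r = 0.84) and Rnf115 (r = 0.81), and for Dbp Osbpl5 (r = 0.74) and B4gat1 (r = 0.74).

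Around these factors, genes of the core clock loop changed with fasting in both genotypes. Of 14 listed, 13 were tested and Npas2 was not. In LWT 4 were called higher and 2 lower, beside 10.0% of all genes, and in LKO 2 higher and 2 lower, beside 12.8%, with medians of 0.26 and 0.04 beside -0.01 and -0.02 over all genes. The period gene Per2 fell in both (-1.27 and -1.50), and the REV-ERB gene Nr1d1 rose in both (0.82 and 0.74). Ciart, which encodes the clock repressor CHRONO, rose in LWT (0.81, adjusted p = 0.00024 by limma) and was called lower in arrays labelled LKO_Fasted than in LWT_Fasted (-1.56, SE 0.17, adjusted p = 2.23e-06). This was the 1 call of the 13 between the fasted genotypes, beside 4.06% of all genes. The Ciart interaction of -1.27 (adjusted p = 0.00202) was the only call of the 13 for the interaction, beside 3.09% of all genes. Csnk1e passed the adjusted p in the other direction, between the fasted genotypes (0.43, adjusted p = 0.000176) and in the interaction (0.40, adjusted p = 0.0143). Between the fed genotypes 0 of 13 were called by limma, beside 3.83% of all genes, with 0 by adjusted p and a lowest adjusted p of 0.0516, for Cry1.

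Known targets of Dbp, Tef and Hlf in liver were counted next, 8 of 8 tested. With fasting, 3 were called higher and 1 lower in LWT, beside 10.0% of all genes, and 2 higher and 3 lower in LKO, beside 12.8%. Por, the electron donor of cytochromes P450, rose in both (1.65 and 1.14), and Alas1, the first enzyme of haem synthesis, rose in both (0.88 and 1.12). Cyp7a1, the rate-limiting enzyme of bile acid synthesis, fell in both (-1.41 and -2.12). Between the fasted genotypes 3 were called lower and 0 higher, beside 4.06% of all genes called, with a median of -0.51 beside 0.00 over all genes. These were Cyp2a4 (-1.05, adjusted p = 0.00311 by limma), Cyp2a5 (-0.95, adjusted p = 0.00268) and the retinal dehydrogenase gene Aldh1a1 (-0.87, adjusted p = 0.0013). Aldh1a1 was also called lower between the fed genotypes (-0.70, adjusted p = 0.00632), the 1 call of the 8 there, beside 3.83% of all genes. Por passed the adjusted p there in the other direction (0.42, adjusted p = 0.000696). For the interaction 2 of the 8 were called lower, beside 3.09% of all genes, namely Cyp2a4 (-1.09, adjusted p = 0.0435) and Cyp2a5 (-1.04, adjusted p = 0.0301), and Por also passed the adjusted p (-0.51, adjusted p = 0.00767). Cyp2a4 and Cyp2a5 are near-identical, so their probes may read both.

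**Figure D4:**
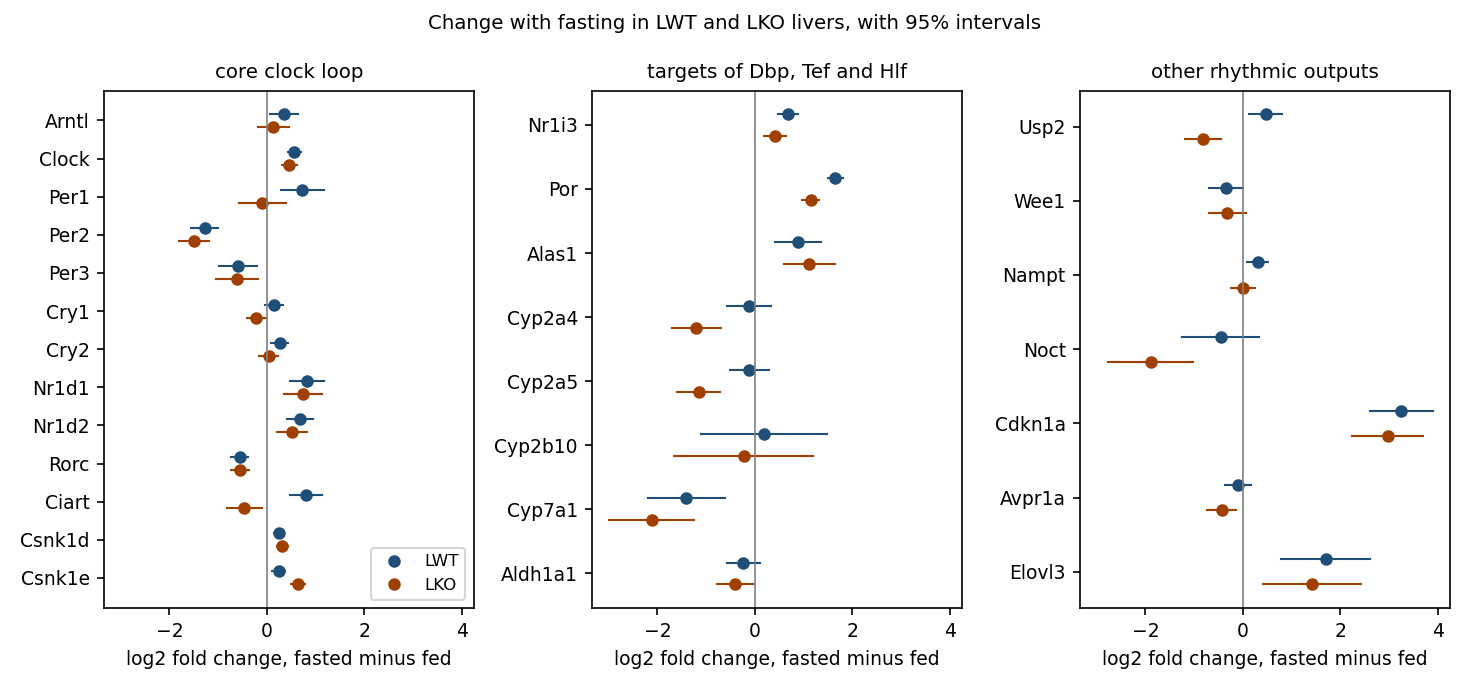
Fasting change on the log2 scale (x axis, with 95% intervals) in LWT (blue) and LKO (brown) for tested genes of the core clock loop, targets of Dbp, Tef and Hlf, and other rhythmic outputs. Per2 lies at -1.27 and -1.50, whereas Ciart (0.81 and -0.46) and Usp2 (0.47 and -0.82) lie on opposite sides of 0 in the 2 genotypes.

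Of 7 other rhythmic outputs, 2 were called higher with fasting in LWT, beside 10.0% of all genes, and 2 higher and 2 lower in LKO, beside 12.8%. Between the fasted genotypes 3 were called lower, beside 4.06%. Cdkn1a, the p21 cell cycle inhibitor, rose in both (3.25 and 2.96). Usp2, a ubiquitin protease, differed between the fasted genotypes (-1.33, adjusted p = 2.19e-05 by limma), and its interaction was -1.29 (adjusted p = 0.00259), the single call of the 7 for the interaction, beside 3.09% of all genes. Noct, which encodes the rhythmic phosphatase nocturnin, was also lower in arrays labelled LKO_Fasted (-1.43, adjusted p = 0.0168), as was Cdkn1a (-1.13, adjusted p = 0.0217). The list median there was -1.01, beside 0.00 over all genes.

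Relatives of the factors were called with fasting in equal number in each genotype, 3 higher and 1 lower of 8 tested in LWT and again in LKO, beside 10.0% and 12.8% of all genes. Hes6, a relative of the Bhlhe genes, fell (-2.08 and -2.12), and Cebpb, a bZIP activator of gluconeogenic genes, rose (0.75 and 0.67). Between genotypes 0 of 8 were called by limma in either feeding state, beside 3.83% of all genes fed and 4.06% fasted, with 1 past the adjusted p in each, Hes6 (-0.42 fed and -0.47 fasted), and 0 of 8 were called for the interaction, beside 3.09% of all genes. There 1 passed the adjusted p, Hes1 (0.51, adjusted p = 0.0322).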

How the data were processed

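RNA of each liver, labelled with Cy3, was put by the authors on Agilent arrays of 60-base probes, 1 colour per array, and read with Feature Extraction 10.10.1.1 (the submitters' processing notes). Per the file headers, the values are spot intensities on the mm9 (NCBI 37) design. The log2 values that the authors deposited in the series matrix, after a bath correction and quantile normalization, were an alternative. Control spots and outlier-flagged spots were left out, spots of a probe were averaged as log2 median intensity, and arrays were quantile normalized. Probes well above background on at least 5 arrays of any group were kept, 32197 probes of 21495 genes, each gene read by its brightest probe. limma 3.58.1 was fitted to all 24 arrays with group means, slide and array weights, and p was adjusted by Benjamini-Hochberg over all probes kept. This was tested on simulated data. Replicate numbers did not pair the mice. Intervals are 95%. Precision is limited by the 6 arrays a group. Labels name separate mice, 1 array each. The washing bath was not named in the labels, and slide stood in its place. The members, lists and tests were chosen with earlier results of these data known; named genes were the members, up to 4 called genes of a list in each comparison, and the 2 genes most like each member. Cry1, Csnk1e, Hes1, Hes6 between genotypes, Por between fed genotypes and in the interaction, and single cell type markers were named after their values were seen.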

Additional observations from a re-analysis of the deposited data

Results flagged for a closer look

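The lowest LWT_Fed mouse for Tef, replicate 3, was at 13.99 on the log2 scale, further from its group than Dixon's critical value for 6 mice allows, and the highest LKO_Fed mouse for Hlf, replicate 6, was at 10.31. Chance marks about 1 group in 20, and 24 groups of the 6 detected members were examined, of which 2 were marked. The fasting change of Hlf differed between genotypes, with an interaction of -0.59 (adjusted p = 0.0279 by limma), and without LKO_Fed replicate 6 it was -0.55 (adjusted p = 0.039), under the 1.5-fold minimum.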

How the results depend on the processing

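The fall of Bhlhe40 with fasting in both genotypes and the lower Hlf in arrays labelled LKO_Fasted were called under every alternative run. Bhlhe40 and Hlf each have a single probe on the array, so no other probe could be compared for them. Taking calls with no minimum fold, the numbers of members called were 4 and 2 for fasting in LWT and LKO, 1 and 2 for genotype fed and fasted. Median scaling in place of quantile normalization gave 1 for fasting in LWT and 0 for the interaction, which was also 0 with probes well above background on all arrays or without the slide term. Leaving out 1 array, the counts ranged from 1 to 2 for fasting in LWT, 1 to 1 in LKO, 0 to 0 for genotype fed, 1 to 2 fasted and 0 to 1 for the interaction. With the brightest probes, signs turned only for values near 0. These were Dbp with fasting in LWT (-0.018 with median scaling, -0.10 to 0.19 without 1 array), Tef between fed genotypes (0.039 without array weights, -0.070 to 0.021 without 1 array) and Nfil3 between fasted genotypes (-0.072 without LKO_Fasted replicates 1 and 2, -0.037 to 0.15 without 1 array). The interaction of Rora ranged from -0.15 to 0.034 without 1 array. With other probes, signs also turned for Dbp with fasting in LWT (-0.13) and Nfil3 between fasted genotypes (-0.005). They turned for Tef between fed genotypes (0.03, 0.07 and 0.14) and, for a single Tef probe, with fasting in LKO (0.03). The causes were not tested.

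Same-numbered mice did not deviate together, with correlations of -0.31 to 0.23 (median -0.02) and 0 of 24 arrays correlating best with their own number. With the replicate block beside slide the counts called were 2, 1, 0, 1 and 1 in the order above, as without it, and no member's call changed. Dbp between fasted genotypes was -0.54 with the block (adjusted p = 0.0287), still under the 1.5-fold minimum. Array signal near background limits Bhlhe41, and 1 hour of sampling limits all members.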
